A study of Mus musculus with 6 samples.

Results

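The 10 genes described here encode proteins that sense stretch in the muscle sarcomere or help to repair it: Ankrd1, Ankrd2, Ankrd23, Csrp3, Xirp1, Xirp2, Flnc, Nrap, Bag3 and Smpx. They were taken by symbol from a table of 16759 genes, and all 10 were found there. RNA was measured by sequencing in hind leg muscle, with 1 library per mouse, in 3 untrained mice (Con, control) and 3 trained mice (EX, exercise). All were male C57BL/6J mice, 8 weeks old at the start, with no genetic change named. The Con mice were kept without treadmill training. The EX mice ran on an electric treadmill for 60 min a day, 5 days a week, for 6 weeks, over 22 km per mouse. Their muscle was taken 24 h after the final run. The sampled tissue was a piece of hind leg muscle of unnamed muscle origin from which fat between the muscles had been removed, after perfusion with saline. The time at which the Con mice were killed was not given in the sources used here.

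The sarcomere is the contractile unit of the muscle fibre, and it carries sensors that respond to load. The muscle ankyrin repeat proteins Ankrd1, Ankrd2 and Ankrd23 bind the spring region of titin and can also enter the nucleus. Csrp3 is a LIM domain protein of the Z-disc, Smpx is a small protein of the costamere, and Nrap anchors actin where myofibrils meet the membrane. Flnc cross-links actin at the Z-disc, the Xin proteins Xirp1 and Xirp2 bundle actin, and both gather at small lesions of the myofibril. Bag3 is the co-chaperone that, with Hspb8 and Hspa8, passes damaged filamin to autophagy. Genes of this kind are known to respond to stretch, injury and unaccustomed load.

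Of the 10 genes, 6 differed between EX and Con muscle. Of these, 4 were lower in EX, namely Ankrd2, Nrap, Flnc and Xirp1, and 2 were higher, Smpx and Xirp2. Ankrd2 fell by 41.9%, Nrap fell by 24.4%, Flnc fell by 22.4% and Xirp1 fell by 18.8%, while Smpx rose by 17.2% and Xirp2 by 10.9%. The other 4 genes, Ankrd1, Ankrd23, Bag3 and Csrp3, did not pass the test. The test was the quasi-likelihood test of edgeR on counts, run on 10883 genes whose mean reached 1 FPKM, with p-values adjusted over all of them by the Benjamini-Hochberg method. A gene was called where its adjusted p was below 0.05, whatever its fold change. All 10 genes passed this filter. Of all genes tested, 17.9% were called, 9.11% as higher and 8.8% as lower in EX. The median log2 fold change was -0.06 over the 10 genes and -0.00093 over all genes tested. Levels are CPM, the counts of a library scaled to its TMM-adjusted total, unless FPKM, the level per transcript length, is named. For the 6 called genes the ranges of the 2 groups were separate, and for the other 4 they overlapped, while 33.7% of all genes tested had values that did not overlap.

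**Figure D1:**
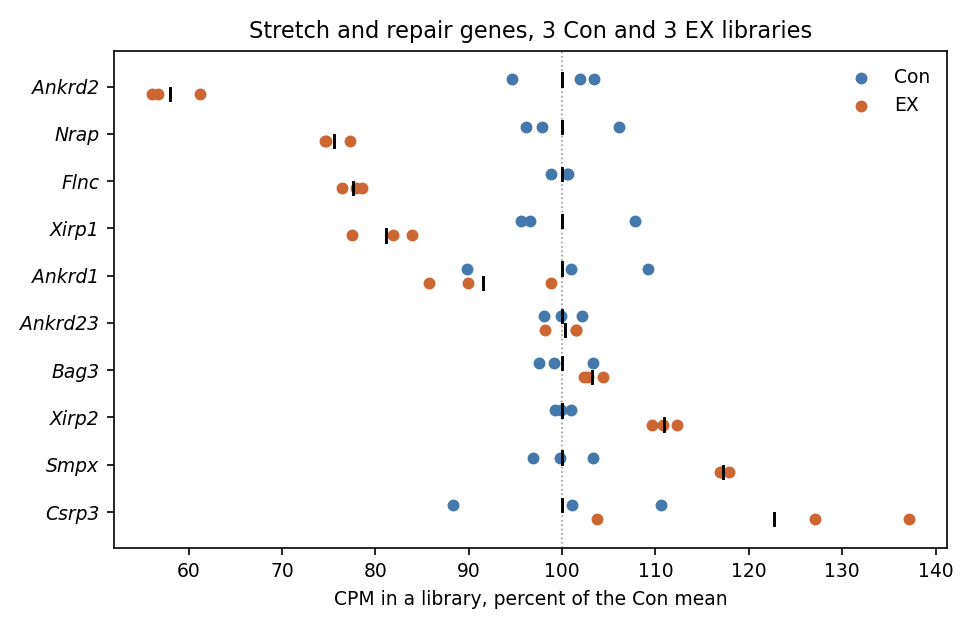
CPM of each gene in each library as a percent of the Con mean (x axis), with 3 Con libraries in blue, 3 EX libraries in orange and a black bar at the group mean. For Ankrd2, Nrap, Flnc and Xirp1 the 3 EX points lie left of the 3 Con points, and for Xirp2 and Smpx they lie right of them.

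Total counts ranged from 13845362 to 16240431 per library, and the spread of CPM between mice had a median coefficient of variation of 5.45% in Con and 4.89% in EX over all genes tested. Markers of skeletal muscle fibres (6 of 6 tested) summed to between 134212 and 141025 CPM in Con and between 145090 and 152976 in EX. Each sum covers all genes of the list in the table, including those under the filter, with CPM scaled in a fit without the filter. Several marker lists moved with the groups. Slow fibre markers were higher for 9 of 9 tested, with sums of 172 to 179 CPM in Con and 448.5 to 476.9 in EX. Their median log2 fold change was 3.48. Macrophage markers were higher for 6 of 7 (40.5 to 44.5 against 74.5 to 81.7 CPM), tendon fibroblast markers for 5 of 7 (428.5 to 443.9 against 661.1 to 692.7) and adipocyte markers for 5 of 5 (401.8 to 427.2 against 523.3 to 557.5). Markers of regenerating fibres were higher for 3 of 5 (80.4 to 84.9 against 117.1 to 120.8 CPM). Endothelial markers were lower for 4 of 6 (707.4 to 720.3 against 603.9 to 627.4 CPM), and of 4 smooth muscle markers 1 was higher and 1 lower (170.8 to 184.9 against 168.5 to 173.3). Median log2 fold changes of the tested markers were 0.89 for macrophage, 0.61 for tendon fibroblast and 1.29 for adipocyte lists. They were 0.23 for regenerating fibre, -0.17 for endothelial and 0.07 for smooth muscle lists. No marker in the table was at 0 in all 6 libraries. The part of these lists in the results below was not tested. In such tissue RNA, fewer cells of a type and less RNA per cell cannot be told apart.

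Promoter windows of 4 called genes are shown because they are the letters that stand before genes that moved in opposite directions. RefSeq windows on GRCm38.p6, from 250 bases before to 50 after the start, were matched by gene number for 9 of the 10 genes, with 12 windows in all. Capitals mark motifs found on either strand: the E-box CANNTG and the MCAT element CATTCC bound by TEAD factors. Also marked are the MEF2 element, the CArG box of SRF and the heat shock motif GAANNTTC or TTCNNGAA. Ankrd2 stands on the plus strand at chr19:42035777-42036076 and Nrap on the minus strand at chr19:56389989-56390288. The first Flnc window is on the plus strand at chr6:29432903-29433202, and Xirp2 is on the plus strand at chr2:67445752-67446051.
Ankrd2: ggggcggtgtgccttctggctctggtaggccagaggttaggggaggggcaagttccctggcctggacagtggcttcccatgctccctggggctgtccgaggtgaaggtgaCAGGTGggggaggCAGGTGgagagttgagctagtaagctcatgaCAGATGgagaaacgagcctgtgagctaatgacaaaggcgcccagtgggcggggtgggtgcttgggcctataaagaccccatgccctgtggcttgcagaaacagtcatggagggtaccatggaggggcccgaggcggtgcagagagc
Nrap: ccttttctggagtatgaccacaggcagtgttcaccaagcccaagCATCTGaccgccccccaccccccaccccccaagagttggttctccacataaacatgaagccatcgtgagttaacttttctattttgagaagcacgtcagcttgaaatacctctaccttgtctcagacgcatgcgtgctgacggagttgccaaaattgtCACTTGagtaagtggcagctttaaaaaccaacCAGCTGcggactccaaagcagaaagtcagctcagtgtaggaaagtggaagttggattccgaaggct
Flnc: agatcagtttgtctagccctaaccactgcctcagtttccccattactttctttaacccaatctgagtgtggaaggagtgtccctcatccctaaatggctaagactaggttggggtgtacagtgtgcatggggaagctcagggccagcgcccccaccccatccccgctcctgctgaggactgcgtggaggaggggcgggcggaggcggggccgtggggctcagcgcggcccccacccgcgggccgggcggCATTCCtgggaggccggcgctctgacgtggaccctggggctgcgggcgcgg
Xirp2: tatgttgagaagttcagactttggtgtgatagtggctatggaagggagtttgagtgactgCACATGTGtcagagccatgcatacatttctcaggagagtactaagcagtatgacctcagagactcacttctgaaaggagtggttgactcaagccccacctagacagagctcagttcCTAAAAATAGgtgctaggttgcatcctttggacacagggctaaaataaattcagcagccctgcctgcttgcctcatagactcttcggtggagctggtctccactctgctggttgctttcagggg

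Xirp1 was the gene with no matched window. The windows of Ankrd2, Nrap and Flnc, the other 3 genes that fell, had no motif in common. Ankrd2 and Nrap each had 3 E-boxes and no MCAT element, whereas both Flnc windows, which overlap and share the site, had 1 MCAT element and no E-box. The E-box stood in 72.3% of all 32851 windows and in 7 of the 12 windows here. The MCAT element stood in 14.7% of all windows and in 5 of the 12, which belonged to Ankrd1, Ankrd23 and Flnc, and only Flnc of these was called. Xirp2 had the only MEF2 element of the 12 windows, against 3.19% of all windows, and a pair of overlapping E-boxes. No window held a CArG box, which stood in 1.63% of all windows. The heat shock motif stood in 3 of the 12 windows, those of Ankrd1, Bag3 and the second of Csrp3, and in 15.1% of all windows. The Smpx window held none of these motifs.

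Among the titin-binding ankyrin repeat proteins, Ankrd2 alone passed the test. Ankrd2 (gene 56642), which is most abundant in slow fibres, was at 37.9, 34.7 and 37.4 CPM in Con replicates 1 to 3 and at 20.6, 20.8 and 22.5 CPM in EX replicates 1 to 3. Its highest EX library lay far below its lowest Con library. The slow fibre markers named above moved the other way, whereas Myoz2, the calsarcin of slow fibres, also fell (log2 fold change -0.81). The part of fibre types in the fall of Ankrd2 was not tested. For Ankrd2 the Con mean was 36.7 ± 1.71 CPM and the EX mean 21.3 ± 1.04 CPM (SD, n = 3). The log2 fold change was -0.78 (SE 0.06, 95% interval -0.92 to -0.65, adjusted p = 5.4e-10 in edgeR). Only 42 of the 958 genes called lower had a more negative log2 fold change. Ankrd23 (78321), the most abundant of the 10 genes, was at 2398, 2443 and 2498 CPM in Con and at 2402, 2481 and 2481 CPM in EX. These values were interleaved, and the log2 fold change was 0.0050 (95% interval -0.06 to 0.07, adjusted p = 0.938 in edgeR). Its sign turned in several alternatives, down to -0.088 with limma on TPM. Ankrd1 (107765), the family member best known from heart and injured muscle, was counted 70, 96 and 90 times in Con and 76, 79 and 87 times in EX. In CPM these were 5.02, 6.11 and 5.64 in Con and 4.79, 5.03 and 5.52 in EX, with ranges that overlapped. Its log2 fold change was -0.13 with a 95% interval from -0.41 to 0.15, which includes a fall as large as that of Xirp1 (adjusted p = 0.552 in edgeR). Markers of cardiac muscle were low in all libraries: 3 of the 5 listed were in the table, none of them passed the filter, and their sum was at most 1.25 CPM.

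**Figure D2:**
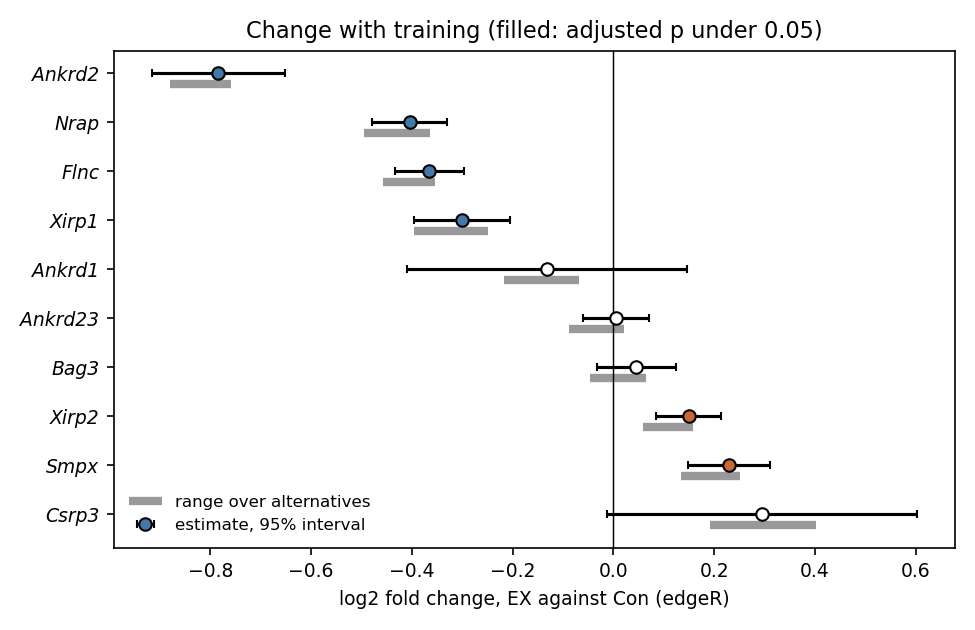
Log2 fold change of EX against Con for each gene (x axis), with the 95% interval of the edgeR fit as whiskers and, in grey, the range over the alternatives. Filled points have an adjusted p under 0.05, and they run from -0.78 for Ankrd2 to 0.23 for Smpx.

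The actin anchors and cross-linkers Nrap, Flnc and Xirp1 were all lower in EX. Nrap (18175) was at 1755, 1618 and 1590 CPM in Con and at 1236, 1279 and 1235 CPM in EX. The groups stood well apart, and its log2 fold change was -0.40 (SE 0.04, 95% interval -0.48 to -0.33, adjusted p = 3.2e-09 in edgeR). Nrap protein is also known at the myotendinous junction, and the 3 markers of that junction that passed the filter were all higher in EX, with list sums of 37.2 to 41.8 CPM in Con and 47.9 to 52.0 in EX. Flnc (68794) was at 757.5, 771.3 and 770.1 CPM in Con and at 586.0, 601.8 and 596.9 CPM in EX. Both groups were tight, with coefficients of variation of 0.995% and 1.35%. Means were 766.3 ± 7.63 CPM in Con and 594.9 ± 8.05 CPM in EX (SD, n = 3), with a log2 fold change of -0.37 (SE 0.03, adjusted p = 3.7e-09 in edgeR). Xirp1 (22437) was at 167.9, 148.7 and 150.3 CPM in Con and at 120.7, 127.5 and 130.6 CPM in EX. Con replicate 1 was the highest library, and the log2 fold change of -0.30 (SE 0.05, adjusted p = 2.5e-05 in edgeR) was -0.25 without it.

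The other Xin gene moved the opposite way. Xirp2 (241431) was at 1447, 1456 and 1472 CPM in Con and at 1638, 1616 and 1599 CPM in EX. All 3 EX libraries were above all 3 Con libraries, and the mean rose from 1458 ± 12.7 to 1618 ± 19.3 CPM (SD, n = 3). The log2 fold change was 0.15 (SE 0.03, 95% interval 0.08 to 0.21, adjusted p = 1.1e-03 in edgeR). The call was lost with limma on log2(FPKM + 0.1), where the log2 fold change was 0.094 (adjusted p = 0.107), and with limma on TPM, where it was 0.058 (adjusted p = 0.270). In these fits the median of all genes tested was -0.056 and -0.091, and the change of Xirp2 relative to that median was 0.15 in both. Among all calls, 991 were higher and 958 lower with edgeR, but 411 were higher and 1037 lower with limma on FPKM and 340 and 1684 with limma on TPM. With library totals taken without the 20 most abundant genes, 772 were higher and 1259 lower.

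Of Smpx, Csrp3 and Bag3, only Smpx was called. Smpx (66106) was at 145.4, 149.8 and 155.1 CPM in Con and at 175.7, 175.4 and 176.9 CPM in EX. The EX libraries were nearly equal to each other and above every Con library. Its log2 fold change was 0.23 (SE 0.04, 95% interval 0.15 to 0.31, adjusted p = 1.1e-04 in edgeR). Csrp3 (13009), which is abundant in heart and slow fibres, was counted 60, 74 and 60 times in Con and 70, 85 and 92 times in EX, which gave 4.30, 4.71 and 3.76 CPM against 4.42, 5.41 and 5.84 CPM. EX replicate 1 lay within the Con range. The log2 fold change was 0.29 with a wide 95% interval from -0.01 to 0.60 (adjusted p = 0.183 in edgeR). Bag3 (29810) was at 206.5, 198.1 and 195.0 CPM in Con and at 204.6, 208.7 and 205.4 CPM in EX, with overlapping ranges. Its 95% interval of -0.03 to 0.12 on the log2 scale left out changes as large as that of Flnc, the protein that Bag3 helps to clear (log2 fold change 0.05, adjusted p = 0.453 in edgeR). Its sign turned with limma on FPKM, to -0.012.

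The levels per transcript length spanned from Ankrd23, at 1255 ± 39.2 FPKM in Con (SD, n = 3), down to Ankrd1, at 3.94 ± 0.407 FPKM. In Con the order after Ankrd23 was Nrap (325.5 FPKM), Smpx (209.2), Xirp2 (128.2), Flnc (90.0), Bag3 (89.4), Ankrd2 (47.3), Xirp1 (28.2) and Csrp3 (7.55). Neighbours in this order had separate ranges in Con, except Flnc (88.2 to 91.2 FPKM) and Bag3 (88.2 to 91.4 FPKM). In EX the order changed at these 2 genes: Flnc, at 66.7 to 67.6 FPKM, was below Bag3, at 88.4 to 88.9 FPKM. Nrap and Smpx, which were apart in Con, overlapped in EX, with 234.1 to 240.0 FPKM for Nrap and 232.6 to 237.5 for Smpx. Before TMM scaling, the 10 genes together took 0.694% to 0.704% of the counts of each Con library and 0.629% to 0.633% of each EX library. In CPM scaled without the filter, their sum was 6805 to 6871 in Con and 6367 to 6497 in EX. The ratio of FPKM to counts would move if the transcript length assigned to a gene differed between groups. Set against the median ratio of all genes tested in the same library, which takes out the scaling between libraries, it moved by at most 0.0050 on the log2 scale for any of them (smallest p = 0.2, exact permutation test, two-sided). In log2 FPKM, the 6 called genes each reached p = 0.1 in a two-sided exact permutation test, the smallest that 3 mice against 3 allow, and the other 4 had p between 0.2 and 0.9.

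**Figure D3:**
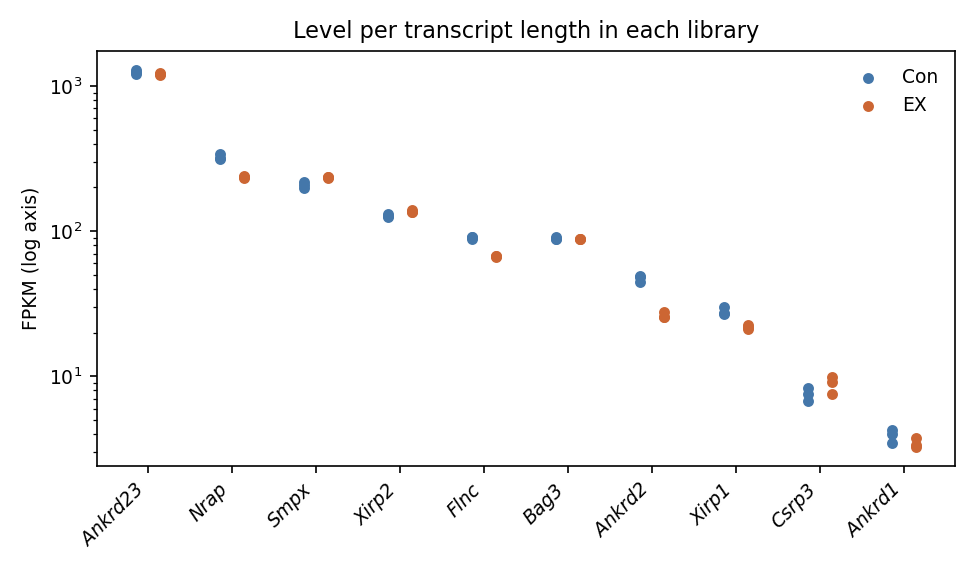
FPKM of each gene (log y axis) in each of 3 Con libraries (blue) and 3 EX libraries (orange), ordered by the Con mean. The points run from about 1255 FPKM for Ankrd23 to under 5 FPKM for Ankrd1, and Flnc and Bag3 overlap in Con and separate in EX.

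Ratios of FPKM within a library do not depend on the scaling between libraries, and 4 such ratios were computed after the values above had been seen. For every 100 units of Ankrd23 there were 3.96, 3.57 and 3.79 units of Ankrd2 in Con and 2.15, 2.11 and 2.27 in EX. The ratio of Xirp1 per 100 Xirp2 was 23.9, 21.1 and 21.0 in Con and 15.1, 16.2 and 16.8 in EX. The paired genes stood in different proportions in the 2 groups. Flnc per 100 Bag3 went from 101 ± 3.76 in Con to 75.8 ± 0.651 in EX (SD, n = 3), and Nrap per 100 Ankrd23 from 26.0 ± 1.94 to 19.6 ± 0.372. Each pair set a called gene that fell against one that did not fall, so the separation of the groups restates the values above and no test is given. Such a ratio shows unequal change of the pair and not which of them changed.

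**Figure D4:**
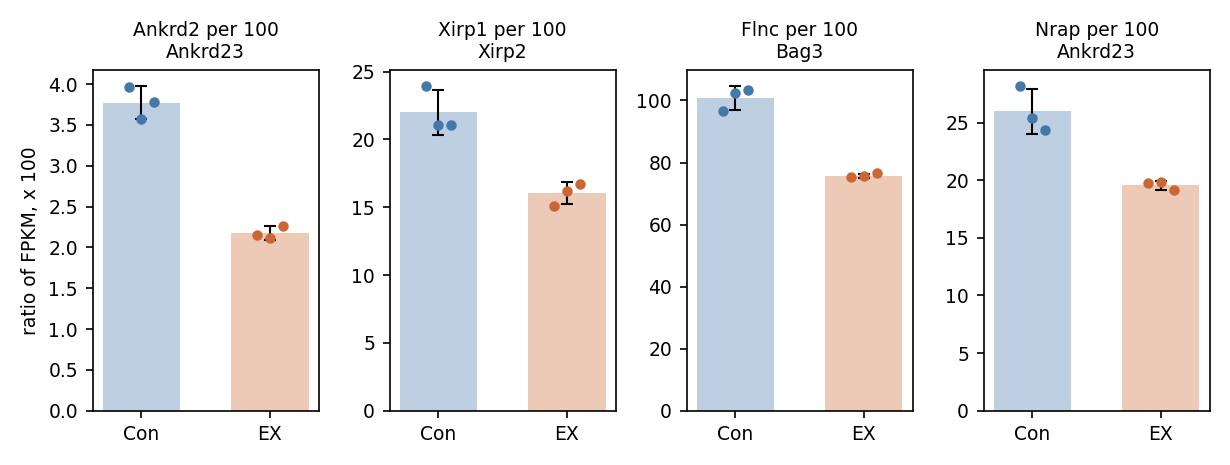
Ratio of the FPKM of 2 genes within a library, times 100 (y axes, from 0), with bars at the mean, whiskers for the SD and points for the 3 Con (blue) and 3 EX (orange) libraries. In each panel the EX points lie below the Con points, from 3.77 to 2.18 for Ankrd2 per 100 Ankrd23 and from 101 to 75.8 for Flnc per 100 Bag3.

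Lists of pathway partners, 5 in all, were read from the same fit. For comparison with each list, 9.11% of all genes tested were called higher and 8.8% lower. Of 22 tested genes of the titin I-band and Z-disc, 10 were higher and 5 lower in EX, with a median log2 fold change of 0.08. Limma on FPKM and on TPM each called 11 genes of this list in place of 15. The largest decreases were in Myoz2 (-0.81), the calsarcin of slow fibres, in the LIM protein gene Lmcd1 (-0.67), and in Trim63 (-0.30), the ubiquitin ligase MuRF1. The largest increases were in Fhl1 (0.35), a LIM protein that binds titin, in Palld (0.33), the actin bundler palladin, and in Myoz3 (0.32), the calsarcin of fast fibres. Titin itself was among the 7 genes that did not pass (Ttn 0.014, adjusted p = 0.814 in edgeR).

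Of 25 tested genes of chaperone-assisted autophagy and the small heat shock proteins, 9 were higher and 2 lower, with a median of 0.05. The inducible chaperones Hspa1b (1.25), Hspa1a (1.11) and their co-chaperone Dnajb1 (0.88) had the largest log2 fold changes, from low Con levels of 5.36, 6.76 and 10.2 CPM. The counts of Hspa1a and Hspa1b, near-identical copies, were not whole, and how reads were divided between them is uncertain. The small heat shock genes were called in both directions: Hspb7 (-0.18) and Hspb6 (-0.17) fell, whereas Hspb3 (0.45), Cryab (0.31), Hspb8 (0.21) and Hspb2 (0.17) rose and Hspb1 did not pass the test (0.05, adjusted p = 0.538 in edgeR). Hspa8 rose by 0.28 on the log2 scale. With limma on TPM, Hspb8 lost its call (0.12, adjusted p = 0.0896), and Hspb2 lost its call in at least 1 alternative (adjusted p up to 0.230). Hspb7 and Hspb6 also lost the call in at least 1 alternative. Over the alternatives their log2 fold changes were as small as -0.089 and -0.107. The rises of Hspb3, Cryab, Hspb8, Hspb2 and Hspa8 were named after their values were seen. Neither Stub1, the ubiquitin ligase of the Bag3 complex (0.07, adjusted p = 0.342 in edgeR), nor Synpo2 (-0.03, adjusted p = 0.679) passed the test.

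Of 19 tested genes of the filamin and nebulin families and their partners, 2 were higher and 5 lower, with a median of -0.02. Igfn1, a Z-disc immunoglobulin protein gene, fell by 0.44 on the log2 scale, and Lmod2, which nucleates thin filaments, fell by 0.18. The pointed-end capping genes Tmod4 (0.16) and Tmod1 (0.11) were higher, and the counts of Tmod1 were not whole. Without EX replicate 3, 3 genes of this list were called in place of 7. Flna changed by -0.10 (adjusted p = 0.082 in edgeR) and Neb by 0.0082 (adjusted p = 0.903).

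Ankrd1 is a well-known target of YAP and TEAD, and other targets of that pathway were called although Ankrd1 was not. Of 20 tested genes of the YAP-TEAD and MRTF-SRF pathways, 7 were higher and 1 lower, with a median of 0.07. The targets Ccn2 (0.42) and Amotl2 (0.39) and the cardiac actin gene Actc1 (1.65) had the largest increases among the called genes, and Vgll2 (-0.69), the TEAD cofactor of skeletal muscle, was the gene that fell. Ccn1 changed by 0.11 (adjusted p = 0.195 in edgeR) and Srf by 0.06 (adjusted p = 0.444). Of 12 genes of sarcolemma repair, 4 were higher and 1 lower, with a median of 0.09. The count of 5 called genes was 3 with DESeq2, 2 with limma on FPKM and 3 with limma on TPM. S100a10 (0.36) and its partner Anxa2 (0.21) rose, as did Trim72 (0.19), which seals membrane tears, and Ahnak fell (-0.25). Of the 24 partner genes with the largest called changes in these lists, 7 lost the call in at least 1 alternative: Hspb6, Hspb7, Lmod2, Tmod1, Tmod4, Trim72 and Anxa2.

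**Figure D5:**
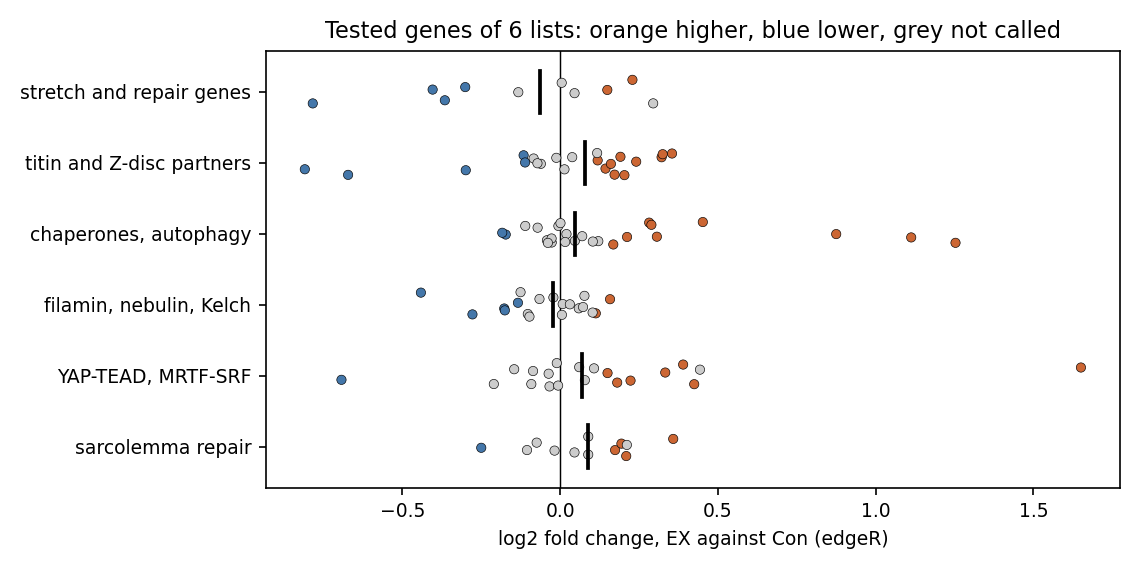
Log2 fold change of EX against Con (x axis) for each tested gene of the stretch and repair genes and of the 5 partner lists, with a black bar at the list median. Genes called higher are orange, those called lower blue and the rest grey, and medians lie between -0.06 and 0.09.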

How the data were processed

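RNA from hind leg muscle of 3 Con and 3 EX mice was sequenced on the DNBseq platform, 1 library for each mouse. Per the paper, the authors aligned filtered reads with HISAT, and GRCm39 is named as the genome. The submitters' processing notes name cutadapt, MultiQC, featureCounts and GRCm38.p6, so the build is not settled, and the table gives no positions. The authors deposited counts, FPKM and TPM. The deposited counts are not normalized and were treated here as estimated counts because some are not whole, although featureCounts usually gives whole numbers, so the counting tool is uncertain. The authors' 6 columns of group means were not used here. Values that were not whole made up 4.18% to 4.44% of each library's genes, and none of these were counts of the 10 genes. Reads on a gene and on its antisense partner cannot be told apart if the library was unstranded, which the sources used here do not state.

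Counts were rounded and compared with edgeR 4.0.16 in R 4.3.3 after TMM normalization. The planned filter was a mean of 1 FPKM. Alternatives were other scalings, filters of 0 and 5 FPKM, DESeq2 1.42.0, limma 3.58.1 on log2(FPKM + 0.1), log2(FPKM + 1) and log2(TPM + 0.1), a replicate block and each library left out. Fold changes on a log2 scale with a pseudocount understate the change of low genes. Intervals are 95% intervals of the edgeR fit. Fits were tested on simulated data with changes of 0.5 and 1 on the log2 scale. At 0.5, edgeR recovered 89.6% of changes and DESeq2 80.9%. Of the calls, 6.56% were false with edgeR, above the 0.05 threshold, and 1.28% with DESeq2. Smaller changes, such as those of Nrap, Flnc, Xirp1, Smpx and Xirp2, were not simulated. Partner genes were named by a rule, the 3 largest called increases and decreases of each, and any further gene was named after its values were seen. A gene that this rule names is not reported here. The genes and lists were chosen with earlier results of these data known. P-values of edgeR weigh the difference of the groups against the spread between these mice, moderated across genes. No sequencing batch is given. Counting error alone limits a count of 0 to 3 counts. Same-numbered libraries did not deviate together (correlations of -0.08, -0.05 and -0.07).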

Additional observations from a re-analysis of the deposited data

How the results depend on the processing

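Ankrd2, Nrap, Flnc, Xirp1 and Smpx kept their direction and their call under all 16 alternatives, with log2 fold changes of -0.88 to -0.76, -0.49 to -0.36, -0.46 to -0.35, -0.40 to -0.25 and 0.13 to 0.25. Set against the all-gene median, each of the 10 genes but Ankrd23 kept its sign. Xirp2 lost its call with limma, at 0.094 on log2(FPKM + 0.1), 0.093 on log2(FPKM + 1) and 0.058 on log2(TPM + 0.1). Without a call in any fit, Bag3 turned to -0.012, -0.011 and -0.047 in these 3 fits. Ankrd23 turned to -0.052, -0.052 and -0.088 in them, to -0.019 without the 20 most abundant genes in the totals and to -0.0092 with the 5 FPKM filter, and it ranged from -0.013 to 0.021 when 1 library was left out. The cause was not tested. Ankrd1 was under the 5 FPKM filter and has no value there. Over all genes, DESeq2 called 1228 in place of 1949, all of them among the 1949. In the sarcolemma repair list, DESeq2 called 3 genes in place of 5, limma 2 on log2(FPKM + 0.1), 2 on log2(FPKM + 1) and 3 on log2(TPM + 0.1). In the filamin and nebulin list the count ranged from 3 to 7 when 1 library was left out. The mice share only a replicate number in the labels, and a replicate block on it gave 1782 genes in place of 1949 and called the same 6 of the 10 genes. Ankrd1 and Csrp3 had the fewest counts of the 10 genes, at most 96 in a library, and the widest intervals.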
